A study of Mus musculus with 4 samples.

Results

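The 10 genes described here encode products that mark megakaryocytes and the platelets they release: Pf4, Ppbp, Itga2b, Itgb3, Gp9, Gp1ba, Gp1bb, Gp6, Treml1 and Vwf. They were taken by name from the 55399 rows of the count table, and all 10 had a row. The table came from bulk RNA-seq of mouse bone marrow in 4 libraries labelled Lsk, a fraction sorted for Sca-1 and Kit and against lineage markers, in which haematopoietic stem cells are found. Of these, 2 carried the genotype label Ppm1bCKO and 2 the label Ppm1bfl/fl, alleles of the phosphatase gene Ppm1b flanked by loxP sites. The sources used here gave no Cre driver and no age, number or sex of the mice, nor did they say whether replicates came from separate mice. P-values therefore measure only the spread between these libraries, which may be technical.

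Megakaryocytes are large polyploid marrow cells that shed platelets into the blood. Platelets bind von Willebrand factor on a damaged vessel wall through the glycoprotein Ib-IX-V complex and collagen through glycoprotein VI, and then aggregate through the integrin αIIbβ3, while their alpha granules release chemokines and adhesive proteins. Transcription factors of the GATA and ETS families are well known for driving these genes, and some stem cells with a platelet bias already express Vwf and Itga2b. Vwf is also made by endothelial cells, and Itgb3 by osteoclasts and other cells.

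The sequences upstream of the start sites of 4 members are shown. These are the neighbouring chemokine genes Pf4 and Ppbp, and the Gp9 and Gp1ba genes, whose products sit in one receptor complex. All 9 tested members stood higher in Ppm1bfl/fl replicate 1 than in Ppm1bfl/fl replicate 2, so that split did not set these 4 apart. Each line holds the 250 bases before the RefSeq start (GRCm38.p6, the mm10 assembly), 5′ to 3′ on the strand of the gene. Capitals mark words known from GATA sites (AGATAA, the variant AGATAG, the form TGATAA and its variant TGATAG) and from ETS sites (AGGAAG and the form CGGAAG), searched on both strands. A word on the opposite strand appears as its reverse complement.
Pf4, chr5:90772185-90772434, + strand: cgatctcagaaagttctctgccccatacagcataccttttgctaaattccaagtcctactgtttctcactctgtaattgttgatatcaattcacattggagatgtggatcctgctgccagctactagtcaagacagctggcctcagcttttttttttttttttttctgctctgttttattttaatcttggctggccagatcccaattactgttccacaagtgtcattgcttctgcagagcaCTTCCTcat
Ppbp, chr5:90768268-90768517, + strand: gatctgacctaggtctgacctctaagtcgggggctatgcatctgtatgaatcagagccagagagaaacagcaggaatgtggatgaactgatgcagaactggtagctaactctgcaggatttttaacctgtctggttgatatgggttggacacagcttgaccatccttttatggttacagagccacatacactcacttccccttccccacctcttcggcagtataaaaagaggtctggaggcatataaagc
Gp9, chr6:87777820-87778069, + strand: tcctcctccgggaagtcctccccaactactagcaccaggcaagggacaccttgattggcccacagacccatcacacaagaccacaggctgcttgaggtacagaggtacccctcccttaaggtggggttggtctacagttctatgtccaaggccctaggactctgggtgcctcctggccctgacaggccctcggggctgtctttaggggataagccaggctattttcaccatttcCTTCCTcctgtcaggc
Gp1ba, chr11:70638872-70639121, + strand: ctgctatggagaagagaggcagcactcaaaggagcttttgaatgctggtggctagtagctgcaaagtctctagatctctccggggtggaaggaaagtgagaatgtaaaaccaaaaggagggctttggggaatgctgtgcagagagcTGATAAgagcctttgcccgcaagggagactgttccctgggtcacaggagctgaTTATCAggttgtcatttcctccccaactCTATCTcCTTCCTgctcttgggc

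These 4 windows differed in the words they held. Gp1ba had 3 GATA words and 1 ETS word, with no overlap between them. Pf4 and Gp9 each had 1 ETS word, within the last 16 bases before the start, and no GATA word. Ppbp had neither. RefSeq windows were found for 8 of the 10 members, Itgb3 and Vwf being without one. A GATA word stood in 3 of the 8, an ETS word in 5 and both in 2 (Gp1ba and Gp1bb). Of all 32851 RefSeq windows of that length, 26.5% held a GATA word, 39.2% an ETS word and 9.21% both. A match describes letters only, and says nothing of binding.

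Total counts were 22393973 and 24856083 in the Ppm1bCKO libraries and 26002277 and 30045382 in the Ppm1bfl/fl libraries. The library Ppm1bCKO replicate 2 stood apart, being the highest of the 4 for 6017 and the lowest for 6103 of the 16393 tested genes. Levels are given as CPM, reads of a gene scaled to the library's normalised total. Ppm1b stood at 84.3 and 121 CPM in the Ppm1bCKO pair and at 80.8 and 82.5 CPM in the Ppm1bfl/fl pair. Its log2 fold change, Ppm1bCKO over Ppm1bfl/fl, was 0.33 ± 0.20 (SE; edgeR adjusted p = 0.717), so it was not lower in Ppm1bCKO. Counts are summed over all exons, so the loss of single exons cannot be read from them, and each direction rests on the labels. The cell type label was checked against its markers. Kit stood at 121 to 228 CPM and Ly6a, which encodes Sca-1, at 17.7 to 22.2 CPM. The haemoglobin gene Hbb-bs, of red cell precursors, stood at 2783 to 7038 CPM. In mean CPM per kilobase of exons, Kit (20.5) and Ly6a (16.7) stood far below some lineage genes. Among these were Hbb-bs (6298), the immunoglobulin gene Igkc (8499) and the neutrophil gene S100a9 (2516). The markers thus did not bear out a fraction free of lineage cells. Platelet transcripts in these libraries cannot be assigned to stem cells. In such bulk libraries, fewer cells of a type and less RNA per cell cannot be told apart.

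The megakaryocyte and platelet genes did not differ between the genotypes beyond the spread of the libraries, and that spread lay mostly between the Ppm1bfl/fl libraries. Ppm1bfl/fl replicate 1 had more of every tested member than Ppm1bfl/fl replicate 2, by 2.14-fold for Itga2b to 4.64-fold for Ppbp. Ppm1bCKO replicate 2 stood at 0.752 (Gp1ba) to 1.92 (Pf4) times Ppm1bCKO replicate 1. Both Ppm1bCKO libraries lay between the Ppm1bfl/fl libraries for 7 of the 9 tested members. Gp1bb, with 2 reads in all, did not pass the filter on low counts, and the other 9 did. The 10 genes summed to 520 and 587 CPM in Ppm1bCKO replicates 1 and 2, and to 927 and 336 CPM in Ppm1bfl/fl replicates 1 and 2.

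No member passed the test. By edgeR's quasi-likelihood test with Benjamini-Hochberg adjustment over all tested genes, 0 of the 9 tested members were called at an adjusted p below 0.05, where 61 of 16393 genes were called (0.372%), 0.061% higher and 0.311% lower in Ppm1bCKO. At an unadjusted p under 0.05 there were 0 members by edgeR, 1 by DESeq2 (Vwf) and 0 by limma-voom. Over all genes there were 1056 of 16393 by edgeR, 986 of 28388 by DESeq2 and 1102 of 16393 by limma-voom. The DESeq2 total holds every gene given a p-value, without the low-count filter used for edgeR and limma-voom. Its share is therefore not directly comparable with that of genes that passed the filter. DESeq2 and limma-voom also called 0 members after adjustment, against 1.19% and 0.311% of all genes. The groups overlapped for all 9, whereas over all tested genes they did not overlap for 41.1%, with Ppm1bCKO higher for 20.6% and lower for 20.6%. The Ppm1bfl/fl libraries lay on either side of both Ppm1bCKO libraries for 7 of the 9 members (77.8%), and for 1595 of the 16393 genes (9.73%). The median log2 fold change, Ppm1bCKO over Ppm1bfl/fl, was -0.18 over the members and -0.003 over all tested genes.

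**Figure D1:**
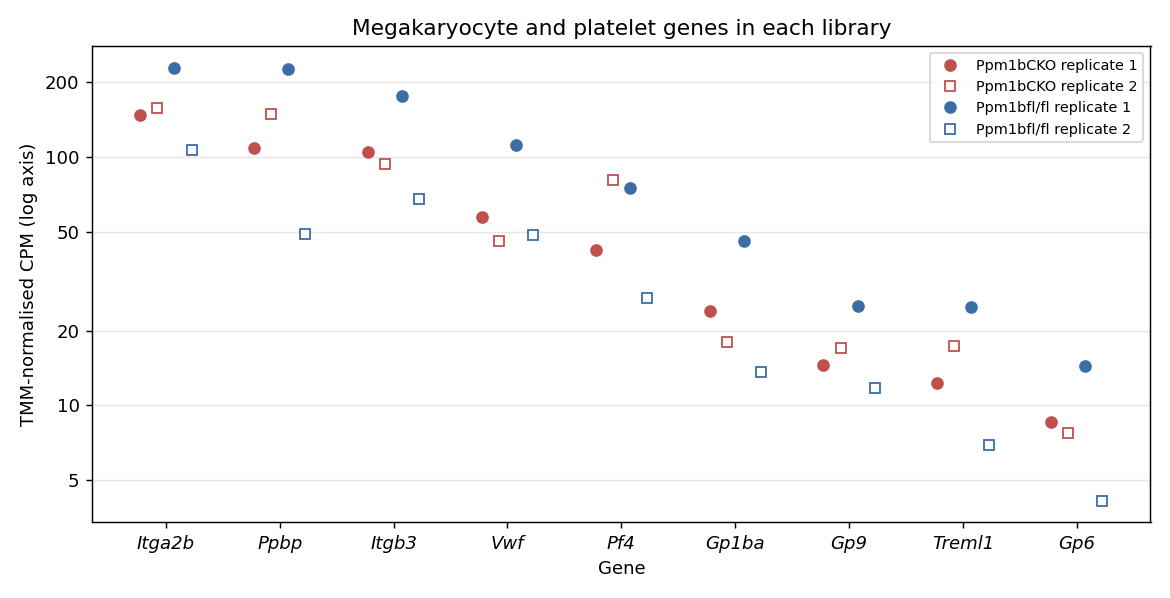
TMM-normalised CPM (log axis) of the 9 tested members in each library, ordered by mean level, with Ppm1bCKO in red and Ppm1bfl/fl in blue (filled circles, replicate 1; open squares, replicate 2). Ppm1bfl/fl replicate 1 is highest for 8 of the 9 genes and Ppm1bfl/fl replicate 2 is lowest for 8, while the red points of most genes lie between them.

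The alpha granule chemokine genes were the most abundant members per length of transcript. Pf4 encodes platelet factor 4 (CXCL4) and stood at 42.1 and 81.0 CPM in Ppm1bCKO replicates 1 and 2, and at 74.7 and 27.1 CPM in Ppm1bfl/fl replicates 1 and 2. It was the only tested member that was highest in a Ppm1bCKO library, and its groups overlapped. Its log2 fold change was 0.27 ± 0.55 (SE; 95% interval -1.13 to 1.68; edgeR adjusted p = 0.888). Ppbp encodes pro-platelet basic protein, the precursor of the neutrophil-attracting chemokine CXCL7. It stood at 109 and 149 CPM in Ppm1bCKO replicates 1 and 2 and at 226 and 48.8 CPM in Ppm1bfl/fl replicates 1 and 2. The Ppm1bfl/fl values enclosed both others, and the log2 fold change was -0.09 ± 0.78 (95% interval -2.27 to 2.08; edgeR adjusted p = 0.978), the widest error among the members.

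Pf4 (ENSMUSG00000029373.7, chr5:90772435-90773383, mm10) and Ppbp (ENSMUSG00000029372.7, chr5:90768518-90770063) lie 2371 bases apart on the same strand of chromosome 5. Their transcripts did not keep a fixed ratio. Ppbp had 2.58 and 1.84 times the CPM of Pf4 in Ppm1bCKO replicates 1 and 2, and 3.03 and 1.80 times in Ppm1bfl/fl replicates 1 and 2. The ratio was highest in Ppm1bfl/fl replicate 1, and it was lower in replicate 2 of each genotype than in replicate 1.

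The genes of the fibrinogen receptor were highest in Ppm1bfl/fl replicate 1 and lowest in Ppm1bfl/fl replicate 2, and Itga2b had the smallest ratio between the Ppm1bfl/fl libraries among the tested members. Itga2b (ENSMUSG00000034664.13, chr11:102453297-102470122) encodes integrin αIIb, also known as CD41, and Itgb3 (ENSMUSG00000020689.4, chr11:104608000-104670476) encodes its partner β3. Itga2b stood at 147 and 158 CPM in Ppm1bCKO replicates 1 and 2, and at 229 and 107 CPM in Ppm1bfl/fl replicates 1 and 2. Itgb3 stood at 105 and 93.8 CPM in the Ppm1bCKO pair, and at 175 and 67.5 CPM in the Ppm1bfl/fl pair, in the same order of replicates. For each subunit the Ppm1bfl/fl libraries lay above and below both Ppm1bCKO libraries. The log2 fold changes were -0.14 ± 0.31 for Itga2b and -0.29 ± 0.40 for Itgb3 (edgeR adjusted p = 0.897 and 0.832). The CPM of Itga2b over that of Itgb3 was 1.40 and 1.68 in Ppm1bCKO replicates 1 and 2, and 1.31 and 1.59 in Ppm1bfl/fl replicates 1 and 2, so the subunit genes kept a closer ratio than the chemokine genes.

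The von Willebrand factor receptor is built from the products of Gp1ba, Gp1bb, Gp9 and Gp5. Gp1ba (ENSMUSG00000050675.7, chr11:70639122-70642036) encodes the ligand-binding chain and stood at 24.0 and 18.0 CPM in Ppm1bCKO replicates 1 and 2, and at 46.0 and 13.7 CPM in Ppm1bfl/fl replicates 1 and 2. Gp9 (ENSMUSG00000030054.4, chr6:87778072-87779768) encodes a small subunit needed for assembly and stood at 14.6 and 16.98 CPM in the Ppm1bCKO pair, and at 25.2 and 11.7 CPM in the Ppm1bfl/fl pair. In both genes the extremes were the Ppm1bfl/fl libraries. The log2 fold change of Gp1ba was -0.50 ± 0.54 (edgeR adjusted p = 0.787) and that of Gp9 was -0.22 ± 0.34 (edgeR adjusted p = 0.840). Gp5, which is not among the 10, stood at 24.8 and 30.5 CPM in the Ppm1bCKO pair and at 43.7 and 15.5 CPM in the Ppm1bfl/fl pair (log2 fold change -0.10 ± 0.44; edgeR adjusted p = 0.956).

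Gp1bb could not be read from this table. It had 2 and 0 reads in Ppm1bCKO replicates 1 and 2 and 0 reads in both Ppm1bfl/fl libraries. With 0 reads the upper limit is 3 reads, which is 0.0998 to 0.121 CPM of the raw totals of the 3 libraries at 0, for counting error only. In the exons listed in the table, the gene (ENSMUSG00000050761.4, chr16:18620317-18622403, minus strand) shares 1938 of its 2087 exonic bases with Sept5 and Gm49601 on the same strand, and 149 bases (7.14%) belong to no other gene. The other 9 members shared no exonic base with another gene. Sept5 had 89 and 105 reads in the Ppm1bCKO libraries and 119 and 121 in the Ppm1bfl/fl libraries, and Gm49601 had 3 to 15. The sources used here do not say how reads in shared exons were assigned, so the level of the Gp1bb transcript is not known from these counts.

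Gp6 and Treml1 had the widest gaps between the Ppm1bfl/fl libraries after Ppbp. Gp6 (ENSMUSG00000078810.4, chr7:4363965-4397744) encodes the collagen receptor glycoprotein VI, and stood at 8.62 and 7.75 CPM in Ppm1bCKO replicates 1 and 2 and at 14.4 and 4.14 CPM in Ppm1bfl/fl replicates 1 and 2. Treml1 (ENSMUSG00000023993.7, chr17:48359916-48367176) encodes TLT-1, a receptor stored in alpha granules, and stood at 12.3 and 17.3 CPM in the Ppm1bCKO pair and at 24.99 and 6.93 CPM in the Ppm1bfl/fl pair. The ratio of Ppm1bfl/fl replicate 1 to replicate 2 was 3.47 for Gp6 and 3.61 for Treml1. Their log2 fold changes were -0.18 ± 0.50 and -0.11 ± 0.56 (edgeR adjusted p = 0.924 and 0.961). The lowest count behind any of the 9 tested members was 125 reads, of Gp6 in Ppm1bfl/fl replicate 2.

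Vwf had the largest fitted difference among the members. It encodes the adhesive protein that carries platelets onto exposed collagen (ENSMUSG00000001930.17, chr6:125546774-125686679). It stood at 57.4 and 45.7 CPM in Ppm1bCKO replicates 1 and 2 and at 111 and 48.7 CPM in Ppm1bfl/fl replicates 1 and 2. Ppm1bfl/fl replicate 1 alone was high, and the other 3 libraries lay close together. The log2 fold change was -0.63 ± 0.35 (95% interval -1.45 to 0.18; unadjusted p = 0.111, edgeR adjusted p = 0.717).

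The members did not all lie in one order between the Ppm1bCKO libraries. Pf4 was 1.92-fold and Ppbp 1.37-fold higher there than in Ppm1bCKO replicate 1, while Vwf was at 0.796, Gp1ba at 0.752 and Itgb3 at 0.893 times the level of replicate 1. The CPM of Pf4 over that of Vwf was 0.734 and 1.77 in Ppm1bCKO replicates 1 and 2, against 0.672 and 0.557 in Ppm1bfl/fl replicates 1 and 2. The CPM of Ppbp over that of Vwf was 1.89 and 3.27 in Ppm1bCKO replicates 1 and 2, against 2.04 and 1.00 in Ppm1bfl/fl replicates 1 and 2, so this ratio differed between the libraries of both genotypes. Each of these ratios between the Ppm1bCKO libraries compares one library with another and has no replicate check.

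Levels of different genes can be compared only per length, here as CPM per kilobase of the exons in the table, averaged over the 4 libraries. Ppbp came first (123 CPM per kilobase), then Pf4 (78.0), Itga2b (29.4), Gp9 (19.4), Itgb3 (18.7), Treml1 (11.0), Gp1ba (9.35), Vwf (4.09) and Gp6 (1.48). Neighbours in this order kept it in all 4 libraries except for the pairs Gp9 and Itgb3, and Treml1 and Gp1ba, each of which kept it in 2 of 4. The table lengths merge all annotated transcripts of a gene, so a gene with long rare transcripts is set lower. On the same scale the markers that define the labelled fraction, Kit and Ly6a, stood at 20.5 and 16.7 CPM per kilobase, below Ppbp, Pf4 and Itga2b.

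The sign of the genotype difference turned with the Ppm1bfl/fl library that was left out. For the 7 members whose Ppm1bfl/fl libraries enclosed both Ppm1bCKO libraries, this turn follows from that order and is no separate result. Without Ppm1bfl/fl replicate 1, all 9 log2 fold changes were positive, with a median of 0.62, and 1 of the 9, Ppbp, was called higher in Ppm1bCKO (1.40 ± 0.35, edgeR adjusted p = 0.0119), where 0.856% of all genes were called. Without Ppm1bfl/fl replicate 2, all 9 were negative, with a median of -0.81, and Gp1ba (-1.13 ± 0.32, edgeR adjusted p = 0.0416) and Vwf (-1.11 ± 0.32, edgeR adjusted p = 0.0472) were called lower, where 1.25% of all genes were called. In each of these fits a lone Ppm1bfl/fl library is taken to vary as the Ppm1bCKO pair does. Without either Ppm1bCKO library 0 members were called, against 19.4% of all genes without replicate 1 and 0.547% without replicate 2: the log2 fold changes ran from -0.81 to 0.67 without replicate 1, and from -0.48 to -0.10 without replicate 2, where that of Pf4 also became negative (-0.27).

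**Figure D2:**
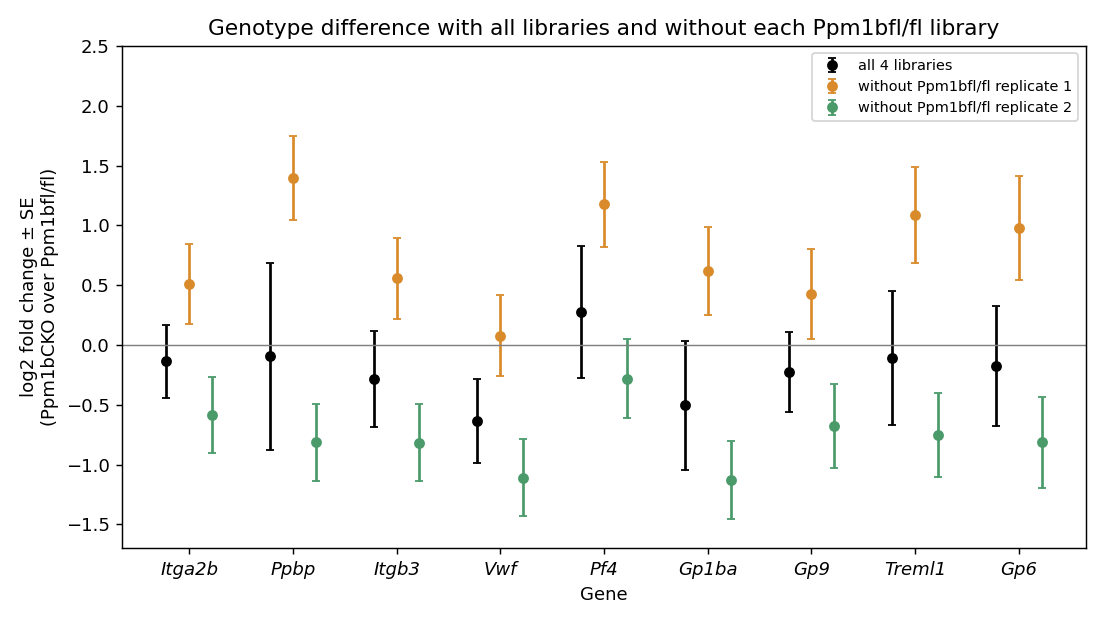
Log2 fold change of the 9 tested members, Ppm1bCKO over Ppm1bfl/fl, with standard errors, from all 4 libraries (black), without Ppm1bfl/fl replicate 1 (orange) and without Ppm1bfl/fl replicate 2 (green). All 9 orange points lie above 0 and all 9 green points below it.

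Further genes of the platelet programme were split between the Ppm1bfl/fl libraries to differing extents. A ratio of Ppm1bfl/fl replicate 1 to replicate 2 of at least 2 was found in 9 of 9 tested members, 11 of 22 other platelet surface receptor genes, 6 of 22 genes of platelet signalling, lipid enzymes and cytoskeleton, 3 of 16 granule genes and 0 of 16 megakaryocyte transcription factor genes. Over all tested genes the share was 3.39%. The difference between these groups was not tested.

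**Figure D3:**
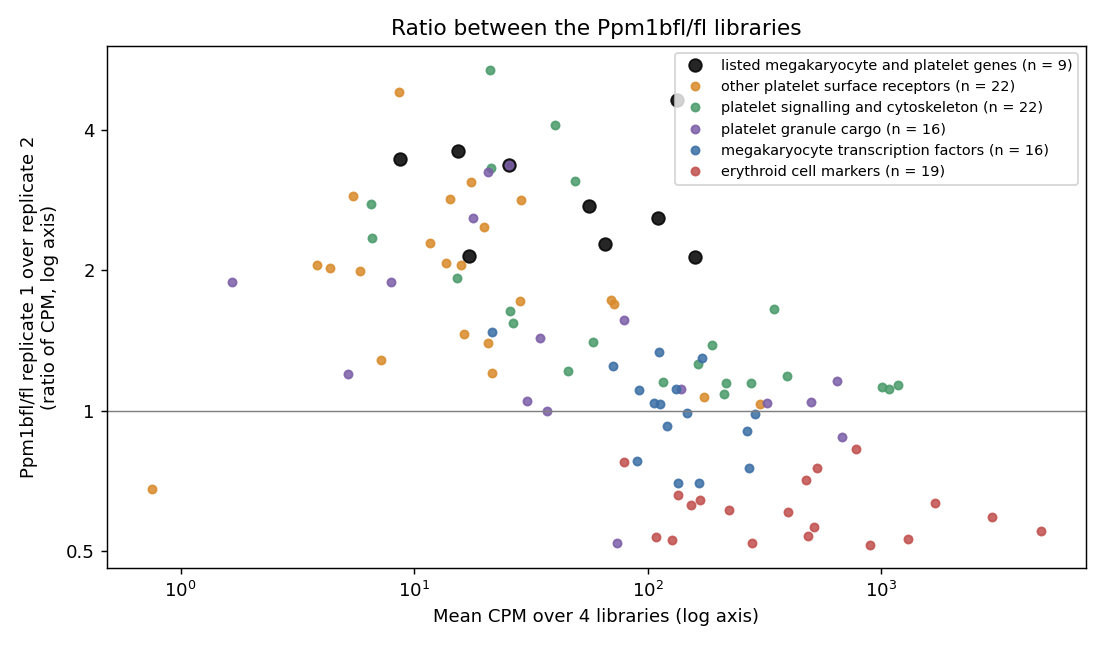
CPM in Ppm1bfl/fl replicate 1 over CPM in Ppm1bfl/fl replicate 2 (log axis) against the mean CPM over 4 libraries (log axis), one point per tested gene, coloured by list. The 9 black points lie between 2.14 and 4.64, and the 19 erythroid points all lie below 1.

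Among the 22 other platelet surface receptor genes, all tested, 0 were called by edgeR, DESeq2 or limma-voom and 0 reached an unadjusted p of 0.05 in any of these tests. Of their log2 fold changes 8 were positive and 14 negative (median -0.25). Fcer1g, Ptgir and Cd9 were among the genes with the smallest p. Fcer1g, the signalling chain that pairs with glycoprotein VI and with Fc receptors of many myeloid cells, had a log2 fold change of 0.36 ± 0.19, Ptgir (the prostacyclin receptor) one of -0.35 ± 0.25 and the tetraspanin gene Cd9 one of 0.33 ± 0.26. Fcer1g, 1 of the 22, was called without Ppm1bCKO replicate 1 (0.57, edgeR adjusted p = 0.00827), where 19.4% of all genes were called.

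Of 22 genes of platelet signalling, lipid enzymes and cytoskeleton, 0 were called by the 3 tools and 0 had an unadjusted p under 0.05 (7 positive, 15 negative, median -0.06). Tubb1, the β1-tubulin of the marginal band of platelets, stood at 51.4 and 32.8 CPM in Ppm1bCKO replicates 1 and 2 and at 83.6 and 26.9 CPM in Ppm1bfl/fl replicates 1 and 2 (-0.39 ± 0.56, edgeR adjusted p = 0.835). The smallest p belonged to Tln1, Flna, Myh9 and Ptgs1, of which the first 3 encode cytoskeletal proteins found in many cell types and the fourth cyclooxygenase-1. Their log2 fold changes were -0.42 ± 0.23, -0.46 ± 0.27, -0.30 ± 0.23 and -0.29 ± 0.24 (edgeR adjusted p = 0.717, 0.717, 0.736 and 0.742). Tln1, Flna and Myh9 were called lower without Ppm1bCKO replicate 1 (-0.74, -0.91 and -0.62; edgeR adjusted p = 0.00222, 0.000809 and 0.00499), where 3336 genes (19.4%) were called in all. Myl9, a myosin light chain gene, had a log2 fold change of -0.06 ± 0.83 with all libraries (edgeR adjusted p = 0.985) and of 1.61 without Ppm1bfl/fl replicate 1. It stood at 17.5 and 23.9 CPM in the Ppm1bCKO pair and at 36.4 and 6.76 CPM in the Ppm1bfl/fl pair.

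Of 16 genes of granule cargo and granule formation, 0 were called by the 3 tools (4 positive, 12 negative, median -0.11). An unadjusted p of 0.05 was reached by 2 in edgeR, 2 in limma-voom and 3 in DESeq2. Over all genes it was reached by 1056 of 16393, 1102 of 16393 and 986 of 28388. The 28388 genes of DESeq2 include those under the low-count filter, which all 16 granule genes passed, so these shares are not directly comparable. Sparc, a collagen-binding protein also made by bone-forming cells, stood at 112 and 76.7 CPM in Ppm1bCKO replicates 1 and 2 and at 36.9 and 71.0 CPM in Ppm1bfl/fl replicates 1 and 2 (0.81 ± 0.31, edgeR adjusted p = 0.717). Nbeal2, needed for alpha granule formation, stood at 139 and 83.0 CPM in the Ppm1bCKO pair and at 175 and 157 CPM in the Ppm1bfl/fl pair (-0.58 ± 0.24, edgeR adjusted p = 0.717). The next smallest p belonged to Pdgfb (-0.66 ± 0.30) and Srgn (0.45 ± 0.22), which encode a growth factor chain and the granule proteoglycan serglycin. Without Ppm1bCKO replicate 1, Nbeal2, Srgn and F13a1 were called (-1.002, 0.67 and -0.42; edgeR adjusted p = 0.000672, 0.00354 and 0.0403), which is 3 of 16 against 19.4% of all genes, a share near the background. Without Ppm1bfl/fl replicate 2, the log2 fold change of Sparc was 1.36.

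The genes of transcription factors that drive megakaryocyte genes had ratios of Ppm1bfl/fl replicate 1 to replicate 2 from 0.699 (Tal1 and Gata1) to 1.48 (Meis1). Of 16 tested genes, 0 were called by the 3 tools and 0 had an unadjusted p under 0.05 (5 positive, 11 negative, median -0.14). Gata1, shared with the erythroid lineage, stood at 122 and 164 CPM in Ppm1bCKO replicates 1 and 2 and at 104 and 149 CPM in Ppm1bfl/fl replicates 1 and 2. Fli1, an ETS factor of megakaryocytes and many other blood cells, stood at 69.7 and 74.7 CPM in the Ppm1bCKO pair and at 77.2 and 61.9 CPM in the Ppm1bfl/fl pair. Nfe2, required for platelet release in mice, stood at 140 and 147 CPM in the Ppm1bCKO pair and at 152 and 153 CPM in the Ppm1bfl/fl pair. Unlike the members, Gata1 was lowest in Ppm1bfl/fl replicate 1. The smallest p belonged to Zfpm1 (-0.37 ± 0.19), a GATA1 partner, then to Srf (-0.26 ± 0.16), Gfi1b (-0.23 ± 0.18) and Gata2 (-0.25 ± 0.21), with edgeR adjusted p from 0.717 to 0.746.

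Erythroid genes ran the other way in the library that was high in platelet genes. Of 19 tested erythroid markers, 13 were lowest in Ppm1bfl/fl replicate 1, and the median ratio of Ppm1bfl/fl replicate 1 to replicate 2 was 0.607, against 2.76 for the members. The list summed to 15216 and 20285 CPM in Ppm1bCKO replicates 1 and 2, and to 10873 and 18338 CPM in Ppm1bfl/fl replicates 1 and 2. Hba-a1, an alpha-globin gene, stood at 2576 and 4604 CPM in the Ppm1bCKO pair and at 1779 and 3001 CPM in the Ppm1bfl/fl pair. Klf1, the erythroid transcription factor gene, stood at 115 and 174 CPM in the Ppm1bCKO pair and at 101 and 152 CPM in the Ppm1bfl/fl pair. The groups overlapped for all 19, and 0 were called by edgeR, DESeq2 or limma-voom. At an unadjusted p under 0.05 there were 0, 2 and 0, against 1056 of 16393, 986 of 28388 and 1102 of 16393 over all genes. The DESeq2 total again includes genes under the low-count filter.

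**Figure D4:**
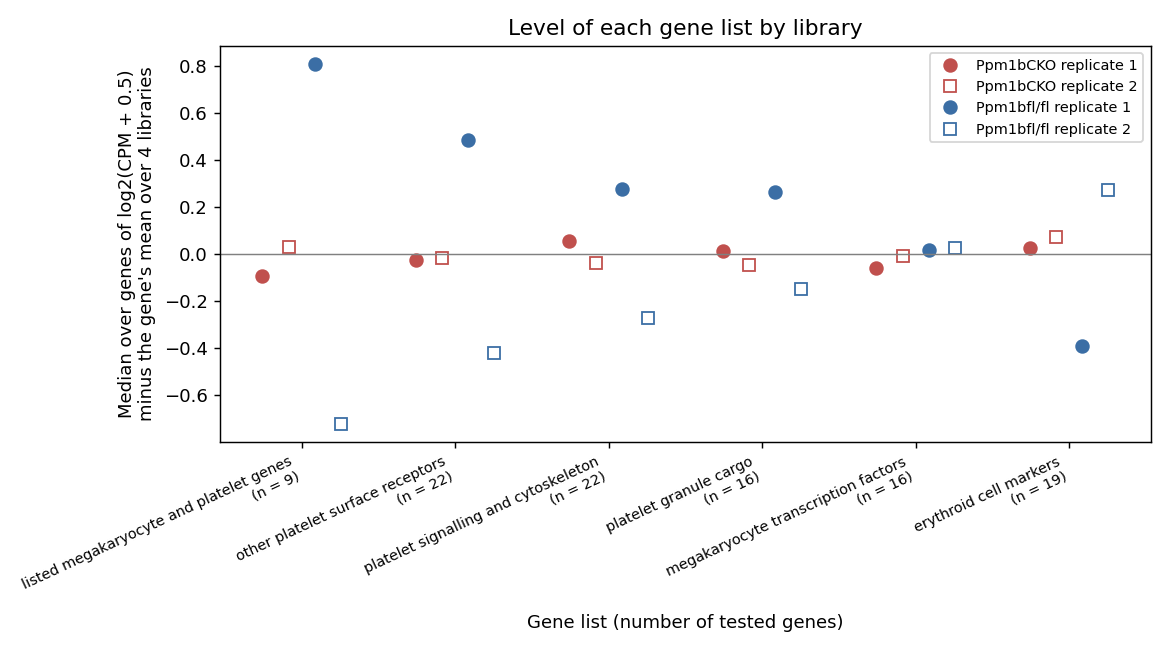
Median over the tested genes of each list of log2(CPM + 0.5), taken relative to each gene's mean over the 4 libraries, by library (red, Ppm1bCKO; blue, Ppm1bfl/fl). For the megakaryocyte and platelet genes the medians are -0.09 and 0.03 in Ppm1bCKO replicates 1 and 2 and 0.81 and -0.72 in Ppm1bfl/fl replicates 1 and 2, and for erythroid markers the Ppm1bfl/fl order is turned round, at -0.39 and 0.27.

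Markers of other cells that express some members were measured beside them. The 16 endothelial markers summed to 265 and 245 CPM in the Ppm1bCKO pair and to 276 and 254 CPM in the Ppm1bfl/fl pair, and most of it was Pecam1, which platelets express too, and Eng. The endothelial cadherin gene Cdh5 stood at 4.84 and 5.94 CPM in the Ppm1bCKO pair and at 3.01 and 2.62 CPM in the Ppm1bfl/fl pair, and the VEGF receptor gene Kdr at 2.39 to 3.50 CPM in all. Of the 13 tested endothelial markers, 2 and 4 were highest in Ppm1bCKO replicates 1 and 2, and 6 and 1 in Ppm1bfl/fl replicates 1 and 2. Those 6 were Tie1, Emcn, Flt1, Flt4, Stab2 and Robo4. Tie1, an endothelial receptor gene, stood at 15.5 and 11.8 CPM in the Ppm1bCKO pair and at 19.8 and 12.2 CPM in the Ppm1bfl/fl pair. The median ratio of Ppm1bfl/fl replicate 1 to replicate 2 over the 13 was 1.20. Of 10 osteoclast markers, 1 (Calcr) was at 0 reads in all 4 libraries and 6 were tested. The list summed to 304 and 266 CPM in the Ppm1bCKO pair and to 339 and 321 CPM in the Ppm1bfl/fl pair, mostly from Mmp9 and Nfatc1, which other cells also use. Ctsk, the osteoclast protease cathepsin K, stood at 1.89 and 2.61 CPM in the Ppm1bCKO pair and at 5.11 and 1.89 CPM in the Ppm1bfl/fl pair. Atp6v0d2, a proton pump subunit gene, stood at 0.308 and 0.421 CPM in the Ppm1bCKO pair and at 2.33 and 0.597 CPM in the Ppm1bfl/fl pair. Ctsk and Atp6v0d2 were highest in Ppm1bfl/fl replicate 1, as most members were, but Atp6v0d2 had only 7 to 62 reads per library. Of the 6 tested osteoclast markers, 4 were highest in Ppm1bfl/fl replicate 1 and 2 in Ppm1bfl/fl replicate 2. Their median ratio of Ppm1bfl/fl replicate 1 to replicate 2 was 1.09. Acp5, highest in Ppm1bfl/fl replicate 2, stood at 46.8 and 54.2 CPM in the Ppm1bCKO pair and at 48.5 and 55.3 CPM in the Ppm1bfl/fl pair. The 11 plasma cell markers were also highest in Ppm1bfl/fl replicate 1 for 9 genes, and summed to 4123 and 5549 CPM in the Ppm1bCKO pair and to 21737 and 13060 CPM in the Ppm1bfl/fl pair. The part of these cells in the levels of the members was not tested.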

How the data were processed

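The authors deposited unnormalised read counts by gene for 4 libraries in one table, with exon coordinates and a gene length in bases, the other quantity in the table per the file headers. Per the labels' protocols, TRIzol RNA of pre-sorted cells went into TruSeq libraries. Per the submitters' processing notes, the build was mm10 and the tools included featureCounts 2.0.1, HISAT2 2.2.0 and Trim Galore 0.6.7. The sources used here do not give the annotation release, the strand setting or the handling of reads that match several genes or places. Symbols came from GENCODE M21 identifiers (55139 of 55399 matched).

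The test was edgeR's robust quasi-likelihood test without covariates (edgeR 4.0.16, R 4.3.3), after TMM normalisation and filterByExpr at a count of at least 10 and 15 in total, two-sided, with Benjamini-Hochberg adjustment over 16393 genes at a threshold of 0.05. Fold changes are Ppm1bCKO over Ppm1bfl/fl, their errors are standard errors, and CPM values are TMM-normalised. A median by library uses log2(CPM + 0.5). Intervals and limits cover counting error or the spread of these libraries only. Replicates differed beyond sampling noise (chi-square per degree of freedom 53.5 for Ppm1bCKO and 25.5 for Ppm1bfl/fl).

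Alternatives were DESeq2 size factors, DESeq2 1.42.0, limma-voom (limma 3.58.1), no low-count filter, at least 1 CPM in 2 samples, the replicate number as a block, immunoglobulin genes left out and each library left out in turn. The fit was checked on simulated counts. The members and lists were chosen with earlier results of these data known. Named genes were the 10 members, Ppm1b, the 4 genes of smallest p in each of 4 further platelet lists, 7 fixed regulators or platelet genes, and, of other cell type markers, 6 fixed genes and the 2 most abundant per list. Some genes this rule covers are not reported here. Other genes were named after their values were seen.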

Additional observations from a re-analysis of the deposited data

How the results depend on the processing

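Leaving out one library moved the member results most. The number of members called ran from 0 to 2 and their median log2 fold change from -0.81 to 0.62. By gene, the log2 fold changes ran from -0.28 to 1.18 for Pf4, -0.81 to 1.40 for Ppbp, -0.59 to 0.51 for Itga2b, -0.82 to 0.56 for Itgb3, -0.68 to 0.43 for Gp9, -1.13 to 0.62 for Gp1ba, -0.81 to 0.98 for Gp6, -0.76 to 1.09 for Treml1 and -1.11 to 0.078 for Vwf, so each of the 9 took both signs. Under the 7 alternatives that keep all libraries, 0 members were called, and Ppbp, Gp6 and Treml1 turned positive in 2 of them, at 0.28, 0.11 and 0.18 by limma-voom and at 0.27, 0.058 and 0.13 with the replicate number as a block. Replicate numbers are shared labels only. Deviations of same-numbered libraries correlated at 0.064 across genes, and the block called 207 genes in all. The count over all genes was 188 by DESeq2, 311 without a low-count filter, 0 with immunoglobulin genes left out (989 at an unadjusted p under 0.05), and 94 to 3336 with one library left out. With one library left out, the calls ran from 0 to 1 and the median from -0.51 to 0.39 for other surface receptors, from 0 to 3 and -0.30 to 0.21 for granule genes, from 0 to 3 and -0.31 to 0.37 for signalling and cytoskeleton, and, for transcription factors, stayed at 0 calls with medians from -0.089 to -0.064. The cause of these changes was not tested. Each genotype had 2 libraries. The 9 tested members had at least 125 reads in every library, against 2 reads in all for Gp1bb.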

Other observations

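Markers of the other cell types a marrow sort can hold were set against the split seen for platelet genes. A ratio of Ppm1bfl/fl replicate 1 to replicate 2 of at least 2 was found in 0 of 15 macrophage, 0 of 10 tested mast cell and basophil, 0 of 13 mature neutrophil, 0 of 13 tested endothelial and 0 of 11 plasma cell markers. A ratio of at least 1.5 was found in 5 of 11 plasma cell markers (45.5%), with Tnfrsf17 at 1.99, against 8.38% of all tested genes. A ratio of at least 2 was found in 2 of 6 tested osteoclast markers and in 3 of 11 stem cell surface markers, among them Slamf1 and Esam, of which Esam is also a platelet gene. Slamf1, which encodes the stem cell receptor CD150 that megakaryocytes also carry and which was named after its values were seen, stood at 5.94 and 5.48 CPM in Ppm1bCKO replicates 1 and 2 and at 10.6 and 4.01 CPM in Ppm1bfl/fl replicates 1 and 2. Cd34, a surface gene of progenitors, stood at 118 to 137 CPM over the 4 libraries. The basophil protease genes Prss34 and Mcpt8, by contrast, stood within 462 to 507 CPM and 232 to 271 CPM over the 4 libraries.

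By edgeR, 0 macrophage, mast cell and basophil, mature neutrophil, endothelial, osteoclast and stem cell surface markers were called. At an unadjusted p under 0.05 there were 7, 0, 1, 1, 1 and 0, against 1056 of the 16393 tested genes. DESeq2 called 4 macrophage markers and 1 neutrophil marker, and limma-voom called 0 of these lists. The log2 fold change was negative for all 15 macrophage markers (median -0.52), among them Csf1r at 225 and 209 CPM in the Ppm1bCKO pair and 244 and 243 CPM in the Ppm1bfl/fl pair, and Hmox1 at 85.1 and 121 CPM in the Ppm1bCKO pair and 209 and 197 CPM in the Ppm1bfl/fl pair. The most abundant neutrophil markers, S100a9 and Ngp, stood at 1159 to 1598 and 1166 to 1347 CPM over the 4 libraries. Of the plasma cell markers 1 was called lower, Igha, at 1628 and 1868 CPM in the Ppm1bCKO pair and 10296 and 6227 CPM in the Ppm1bfl/fl pair (edgeR adjusted p = 0.0225). Igkc, the kappa constant region, stood at 1711 and 2638 CPM in the Ppm1bCKO pair and at 8609 and 5127 CPM in the Ppm1bfl/fl pair (edgeR adjusted p = 0.136). DESeq2 called 4 plasma cell markers, Jchain, Igha, Igkc and Derl3, and limma-voom called 1, Igha.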
